A study of Homo sapiens with 3 samples.

Results

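The genes described here are the 10 members of the polyamine synthesis and catabolism pathway: ODC1, AMD1, SRM and SMS for synthesis, OAZ1, OAZ2 and AZIN1 for the control of ODC1, and SAT1, SMOX and PAOX for catabolism. They were taken by name from a count table of 60664 gene identifiers, and all 10 were found. Of these, 9 were measured, meaning a CPM (the usual depth-normalised count, here with library totals scaled by trimmed mean of M values, TMM) of at least 1 in at least 1 library, as were 14792 genes of the whole table. PAOX was the member that was not.

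RNA was sequenced from Caco-2, a human colon carcinoma line of wild-type genotype that is much used as a model of intestinal epithelium. There were 3 libraries, 1 for each of 3 treatments: control cells without either agent, cells kept for 8 h in 3% dextran sulfate sodium (DSS), and cells that had a 2 h pre-treatment with 30 µM polydatin and then polydatin together with 3% DSS over 8 h. DSS is a sulfated polysaccharide used to injure the colonic epithelium, and polydatin is a glucoside of resveratrol. The title of the study names protection from colitis by polydatin through NRF2, SLC7A11 and GPX4 and the inhibition of ferroptosis. With 1 library a group there is no replicate spread and no test of a treatment, and no group received polydatin without DSS. Each ratio below therefore compares libraries, and its 95% interval covers counting error only, with reads taken as independent.

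Polyamines (putrescine, spermidine and spermine) are small cations that bind nucleic acids and are needed for growth of the intestinal mucosa. ODC1 makes putrescine from ornithine, AMD1 makes the aminopropyl donor from S-adenosylmethionine, and SRM and SMS then build spermidine and spermine. Antizymes, whose translation needs a ribosomal frameshift that polyamines promote, send ODC1 to the proteasome, and SAT1 acetylates spermidine and spermine so that they are exported or oxidised. SAT1 has also been studied as a gene that favours ferroptosis, the form of cell death named in the title.

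The frameshift site is shown first, since it is the sequence by which the pathway senses its product. OAZ1 and OAZ2 are also the likest of the related pairs compared. The 30 bases around the stop codon of the first reading frame lie in 1 exon of each gene, at chr19:2271428-2271457 on the plus strand for OAZ1 and chr15:64691501-64691530 on the minus strand for OAZ2 (GRCh38, GENCODE 29). The capitals mark the stop codon that the ribosome has to shift past, and the sequences read 5′ to 3′.
OAZ1: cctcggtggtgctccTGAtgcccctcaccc
OAZ2: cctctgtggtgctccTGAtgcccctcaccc
The pair differed at 1 base, G5T, where the base of OAZ1 comes first and positions count from 1 at the 5′ end. Over their coding sequences OAZ1 and OAZ2 were 65.3% identical in aligned bases. The longest run shared by their whole transcripts, untranslated parts included, was 26 bases. The other pairs of related members were 63.3% identical for ODC1 with AZIN1, 64.2% for SMOX with PAOX and 59.2% for SRM with SMS, and their longest shared runs were 14, 16 and 12 bases. Named pseudogenes of AMD1, SMS, SRM and OAZ1 held between 0 and 3 counts in every library.

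Start-site windows of 300 bases (250 before to 50 after the start, RefSeq, GRCh38.p14) were matched for 7 members (all but AZIN1, SMOX and PAOX), in 10 windows. The motifs searched on both strands were CACGTG (the E-box read by MYC and MAX), TGACNNNGC (the core of the antioxidant response element read by NRF2), TGATGNAA (the core read by ATF4 with CHOP) and TATAAA. The E-box was present in ODC1 and SRM among the 7 members, in 2 of their 10 windows, and in 7.26% of the 35116 windows of all genes. TGACNNNGC was present in ODC1 alone among the 7 members, in 1 of the 10 windows, and in 13.3% of all windows. TATAAA was present in OAZ1, in 1 of the 10 windows, and in 11.5% of all windows. The match in OAZ1 began at 6 relative to the start, and so after it. TGATGNAA was in no member's window and in 3.62% of all windows. The matches in ODC1 and SRM are printed with 12 bases before the match, 30 bases in all, with the match in capitals. Their positions are chr2:10448024-10448053 and chr2:10447990-10448019 for the E-boxes of ODC1, chr1:11060200-11060229 for that of SRM, and chr2:10448315-10448344 for the antioxidant core of ODC1, all on the minus strand.
ODC1 E-box 1: ccgggccccgggCACGTGtgcggcgcgcct
ODC1 E-box 2: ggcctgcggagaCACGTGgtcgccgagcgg
SRM E-box: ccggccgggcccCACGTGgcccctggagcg
ODC1 antioxidant core: gcgtgccgtgggGCTTTGTCAgtccctcct
The E-boxes of ODC1 began at -29 and 5 relative to the start they flank, which lies in an intron of the GENCODE 29 models, and that of SRM at -199, upstream of the gene. The antioxidant core of ODC1 reads on the opposite strand and overlaps an exon at the other start, from -5. These are matches of letters, and binding was not measured.

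The libraries held 16667622 to 18825914 counts, so that 1 CPM stood for 17.4 to 18.5 counts. Epithelial markers were present as the label says: 7 of 8 reached 1 CPM in every library, with KRT20 below it and a summed CPM of 7045 in control, 8438 in DSS and 6708 with polydatin. Markers of blood cells summed to 2.59, 3.51 and 2.64 CPM with PTPRC at 0 throughout, those of stroma to 47.3, 41.8 and 48.6, and those of endothelium to 24.9, 17.2 and 13.4. These sums hold genes that moved opposite ways. Of the endothelial markers PECAM1 had 24.4, 16.0 and 9.52 CPM in control, DSS and polydatin, and VWF 0.496, 1.19 and 3.90. Of the epithelial markers CDX2 had 147, 118 and 78.3 CPM, and CDH1 586, 698 and 738. The part of the marker genes in the results was not tested. In bulk RNA, fewer cells of a type and less RNA per cell cannot be told apart.

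ODC1, the entry enzyme of synthesis, had the lowest ratio to control of the synthesis genes in both treated libraries. Its level was 248 CPM in control (4499 counts), 156 CPM in DSS (2893 counts) and 104 CPM with polydatin (1818 counts). No counting intervals of the 3 libraries overlapped, and the control was the highest. The DSS library stood at 0.630 of control (0.601 to 0.661), and the polydatin library at 0.421 of control (0.398 to 0.444), a 2.38-fold lower level. Between polydatin and DSS the ratio was 0.668 (0.629 to 0.708), 1.498-fold lower and just short of the rule used here for calling a gene higher or lower (at least 1.5-fold apart with a counting interval that excludes 1). The call for this pair depended on the setting. It passed the rule with DESeq2 size factors, at 0.664, and after correction for a trend on GC content and exon length, at 0.663. It did not pass under total-count scaling, at 0.710, or with libraries thinned to the smallest, at 0.674.

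SRM, spermidine synthase, was the least abundant synthesis gene. It had 25.0 CPM in control, 22.5 in DSS and 14.4 with polydatin, from 454, 417 and 251 counts. Control and DSS overlapped, and the polydatin library lay below both. Its ratio was 0.900 in DSS against control (0.786 to 1.03), 0.640 with polydatin against DSS (0.545 to 0.750) and 0.576 with polydatin against control (0.491 to 0.673). Under total-count scaling the ratio to DSS was 0.680 and no longer 1.5-fold. After correction for a trend on GC content and exon length, SRM was at 0.739 of control in DSS (0.646 to 0.846). With polydatin it was then at 0.414 of control (0.353 to 0.484), which overlapped ODC1 at 0.407 (0.385 to 0.430).

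SMS, spermine synthase, and AMD1, adenosylmethionine decarboxylase, stayed within 1.5-fold throughout. SMS measured 303 CPM in control, 272 in DSS and 227 with polydatin, an order of the libraries like that of ODC1 with smaller steps. Its ratio was 0.899 (0.865 to 0.934) in DSS against control, 0.833 (0.799 to 0.869) with polydatin against DSS and 0.749 (0.719 to 0.780) with polydatin against control. AMD1 had another order, with 192 CPM in control, 239 in DSS and 186 with polydatin. Here the DSS library was the highest, at 1.25 of control (1.19 to 1.30), and polydatin stood at 0.777 of DSS (0.742 to 0.813) and 0.970 of control (0.924 to 1.02).

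**Figure D1:**
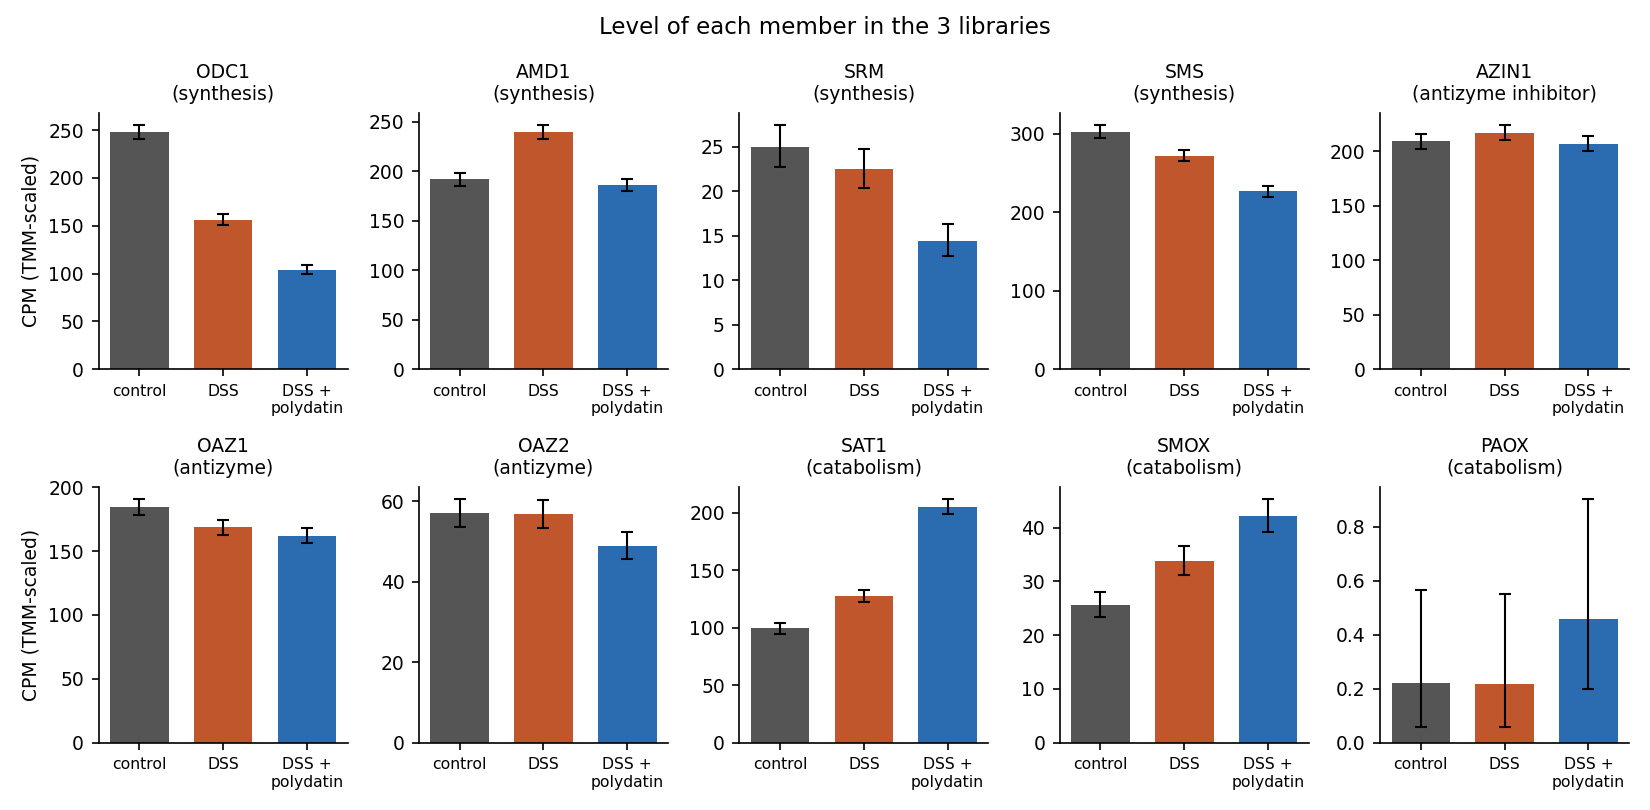
TMM-scaled CPM of each of the 10 members in the control, DSS and DSS with polydatin libraries, 1 library a bar, with exact 95% Poisson intervals for counting error and a separate vertical axis for each gene. ODC1 steps down from 248 to 156 to 104 CPM while SAT1 steps up from 99.3 to 128 to 205, and PAOX stays under 1 CPM.

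The genes that act on ODC1 protein stayed within 1.5-fold between libraries. OAZ1, the main antizyme, had 185 CPM in control, 169 in DSS and 162 with polydatin. OAZ2, a second antizyme, had 57.1, 56.8 and 49.0 CPM. AZIN1, an ODC1 relative without enzyme activity that binds antizyme in place of ODC1, had 209, 217 and 207 CPM. Across these 3 genes and the 3 comparisons the ratios ran from 0.858 (OAZ2, polydatin against control) to 1.04 (AZIN1, DSS against control). The setting that moved one of them past 1.5-fold was correction for a trend on GC content and exon length, which put OAZ1 at 0.664 with polydatin against control. Exons of OAZ1 share 236 bases with JSRP1 on the other strand and those of AZIN1 share 344 bases with AZIN1-AS1. Exons of OAZ2 share 554 bases with AC100830.3, also on the other strand. JSRP1 held 40, 67 and 53 counts, AZIN1-AS1 33, 63 and 82, and AC100830.3 2, 8 and 2. Because the strand setting of the counting is unknown, reads in those shared bases cannot be assigned to either gene. Exons of OAZ1 also share 220 bases with AC005258.1 on the same strand, where no strand setting would separate the reads. AC005258.1 held 0 counts in every library.

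SAT1, the acetyltransferase that opens catabolism, had the opposite order to ODC1. It had 99.3 CPM in control (1804 counts), 128 in DSS (2367 counts) and 205 with polydatin (3579 counts), and the 3 counting intervals were apart. In DSS it stood at 1.29 of control (1.21 to 1.37), under the rule, and with polydatin at 2.07 of control (1.95 to 2.19) and 1.61 of DSS (1.52 to 1.69).

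SMOX, spermine oxidase, had the same order as SAT1 at a lower level, with 25.6 CPM in control, 33.8 in DSS and 42.2 with polydatin, from 465, 627 and 736 counts. Its ratio was 1.32 in DSS against control (1.17 to 1.49), 1.25 with polydatin against DSS (1.12 to 1.39) and 1.65 with polydatin against control (1.47 to 1.86). After the same correction the last of these was 1.26 and no longer 1.5-fold. PAOX, the oxidase of acetylated polyamines and so the step after SAT1, had 4, 4 and 8 counts. Its ratio of polydatin to DSS has a counting interval from 0.569 to 9.64, so that a difference was not detectable at this depth. Its exons share 158 bases on the same strand with AL360181.3, which held 38, 56 and 48 counts. No strand setting would separate reads in those bases.

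**Figure D2:**
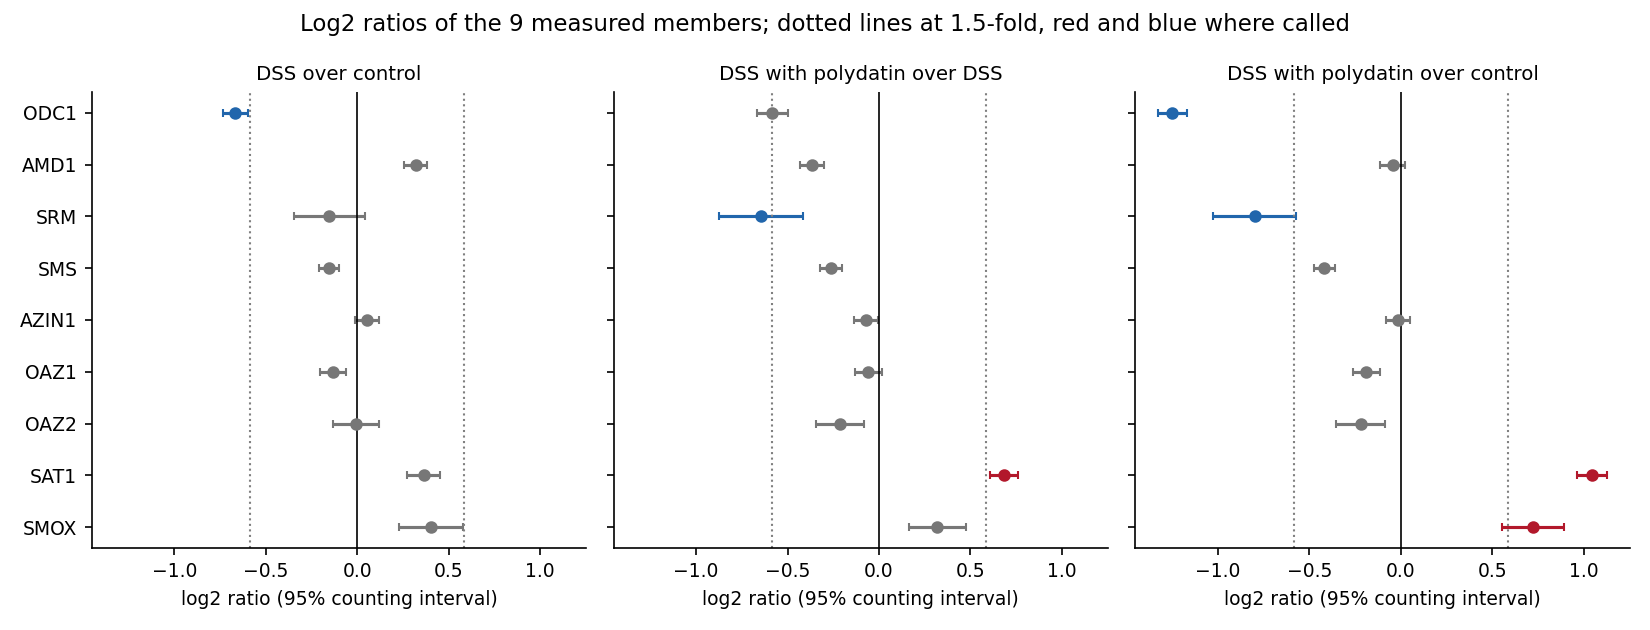
Log2 ratios of the 9 measured members in the 3 comparisons, with 95% counting intervals, dotted lines at 1.5-fold and red or blue points for genes past 1.5-fold with an interval that excludes no change. ODC1 lies at -0.67, -0.58 and -1.25 from left to right and SAT1 at 0.36, 0.68 and 1.05.

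Counted together, DSS against control had 0 members higher and 1 lower (ODC1) of the 9 measured, beside 9.45% of all measured genes higher and 5.81% lower. Polydatin with DSS against DSS had 1 higher (SAT1) and 1 lower (SRM), beside 5.39% and 2.60% of all genes. Polydatin with DSS against control had 2 higher (SAT1 and SMOX) and 2 lower (ODC1 and SRM), beside 16.0% and 12.4% of all genes. The median log2 ratio of the members was -0.01, -0.21 and -0.19 in the 3 comparisons, against -0.01, -0.01 and -0.02 over all measured genes. Against control, ODC1 with polydatin lay at percentile 1.59 of all measured genes and SAT1 at percentile 91.8. The comparisons share libraries and are not independent of each other. Scaling by total counts moved the median of all genes up by 0.11 (log2) for polydatin against control. Under every scaling tried (total counts, DESeq2, thinning), ODC1, SRM and SMS stayed below 0 and SAT1 and SMOX above 0 in all 3 comparisons, while the sign of AZIN1, OAZ1, OAZ2 and AMD1 depended on the scaling in at least 1 comparison.

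**Figure D3:**
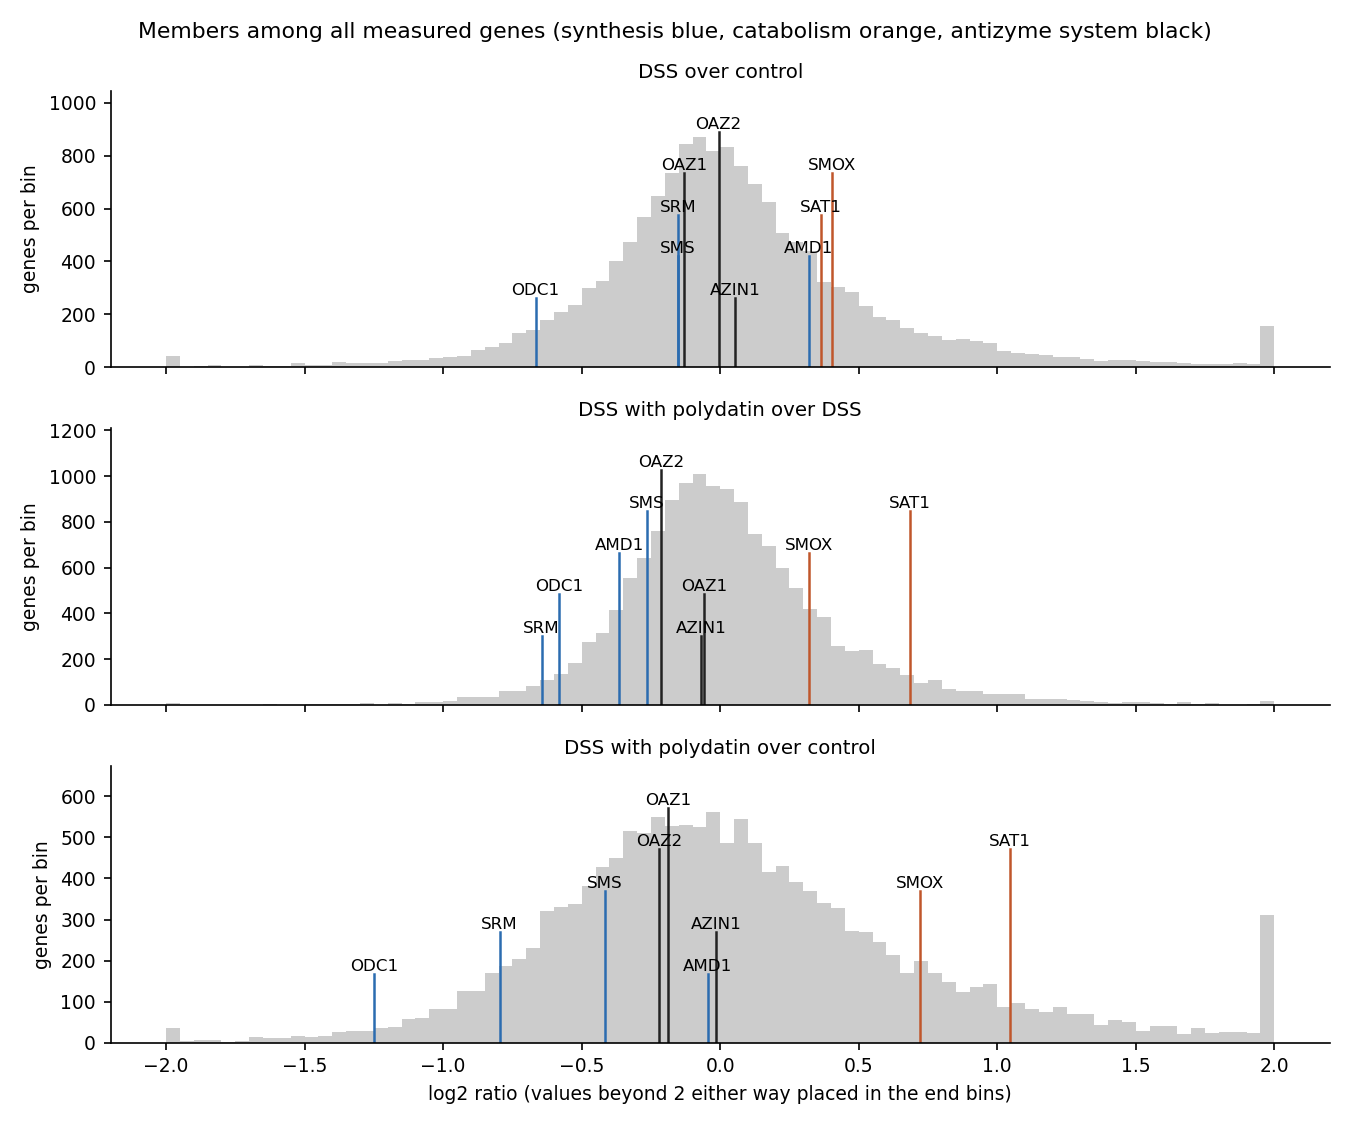
Histograms of the log2 ratios of all 14792 measured genes in bins of equal width for each comparison, with a labelled line at each measured member (line height has no meaning). With polydatin against control, ODC1 at -1.25 lies at percentile 1.59 of all measured genes and SRM at -0.80 at percentile 6.96. SMOX at 0.72 lies at percentile 85.5 and SAT1 at 1.05 at percentile 91.8.

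A ratio of counts of 2 genes within a library does not depend on how libraries are scaled. Its change between libraries does depend on correction for a trend on GC content and exon length. With polydatin against control, that correction moved OAZ1 from 0.878 to 0.664 and ODC1 from 0.421 to 0.407. It moved SRM from 0.576 to 0.414 and AMD1 from 0.970 to 1.08. The ratios in this paragraph are without the correction. ODC1 had 2.49 counts for each count of SAT1 in control (2.36 to 2.64), 1.22 in DSS (1.16 to 1.29) and 0.508 with polydatin (0.480 to 0.538). The ratio was thus 2.04-fold lower in DSS than in control and 4.91-fold lower with polydatin. Which gene of the pair was the higher depends on length: per kilobase of merged exons ODC1 had 2.10, 1.03 and 0.428 of the SAT1 level in the 3 libraries, and per kilobase of the principal transcript 1.00, 0.491 and 0.204. Against OAZ1, whose protein inhibits it, ODC1 had 1.34, 0.926 and 0.643 counts, and against AZIN1 it had 1.18, 0.719 and 0.504. AMD1 gained on SRM, from 7.68 counts for each SRM count in control to 10.6 in DSS and 12.9 with polydatin, where the intervals of the last pair overlap. The ratio of SMS to SRM was 12.1 in control, 12.1 in DSS and 15.7 with polydatin. SAT1 to SMOX was 3.88, 3.78 and 4.86, and OAZ1 to OAZ2 was 3.24, 2.97 and 3.31. The intervals of the antizyme pair overlapped between the 3 libraries.

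Levels of different genes were compared per kilobase of merged exons. On this length SMS was the highest member in each library, at 140, 126 and 105 CPM per kb. ODC1 was next in control at 83.5, overlapped SAT1 within counting error in DSS (52.6 and 51.1), and stood under SAT1 (82.2) and OAZ1 (47.2) with polydatin, at 35.1. AMD1 and AZIN1 overlapped in DSS, at 34.1 and 33.8 CPM per kb, as did SRM and SMOX at 11.9 and 11.5. With polydatin SMOX, at 14.3, was above SRM, at 7.58, and SRM overlapped OAZ2 at 6.38. The 4 synthesis genes made up 65.0% of the members' summed CPM per kb in control, 59.5% in DSS and 48.8% with polydatin. The catabolic genes made up 11.9%, 16.6% and 27.1%, and the antizymes 15.1%, 15.0% and 15.0%. These shares depend on which transcripts set the length, since merged exons of SAT1, OAZ1 and OAZ2 are longer than their principal transcripts (2.50 against 1.06 kb, 3.44 against 1.15 kb and 7.67 against 1.93 kb). Per kilobase of the principal transcript, an alternative chosen after the data were seen, synthesis held 49.6%, 45.2% and 35.1% catabolism 15.6%, 20.7% and 32.6%, and the antizymes 28.3%, 27.0% and 25.6%. On that scale SAT1 was the highest member with polydatin at 193 CPM per kb, and SMS overlapped OAZ1 in control and in DSS. Per kilobase of the longest transcript SAT1 was also the highest with polydatin, at 181 CPM per kb with SMS at 123.

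**Figure D4:**
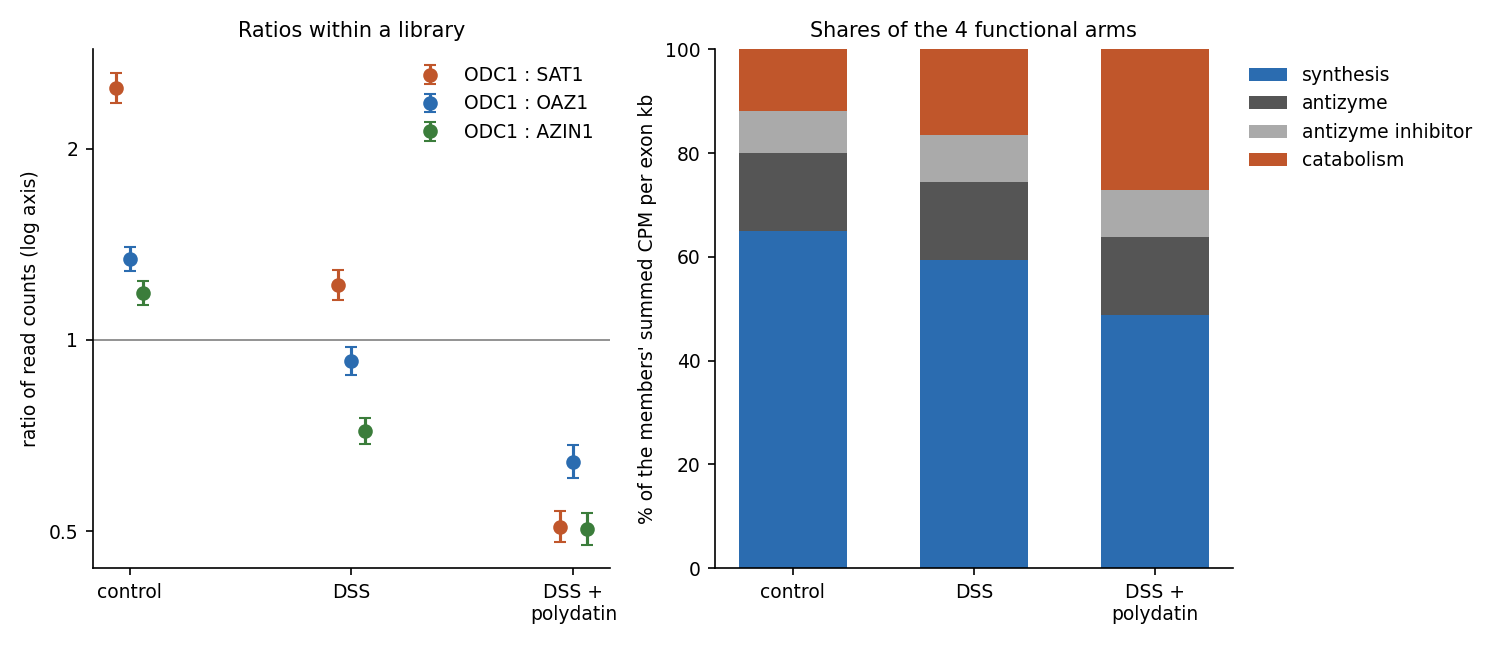
Left, ratios of read counts of ODC1 to SAT1, OAZ1 and AZIN1 in each library on a log axis with 95% counting intervals; right, shares of the 4 functional arms in the members' summed CPM per kb of merged exons. The ODC1 to SAT1 ratio passes from 2.49 in control to 0.508 with polydatin, and the synthesis share from 65.0% to 48.8%.

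Genes next to the pathway were read from 7 lists of 68 genes, of which 57 were measured. DSS against control had 7 of the 57 higher and 3 lower, beside 9.45% and 5.81% of all measured genes. Polydatin against DSS had 2 higher and 5 lower, beside 5.39% and 2.60%, and polydatin against control 7 higher and 7 lower, beside 16.0% and 12.4%. These 6 shares are the background for each list below, where a list of few genes makes a count of 1 or 2 no result about the list. Their median log2 ratios were -0.06, -0.04 and -0.13.

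In the supply of ornithine and arginine, 1 of 7 measured genes was higher in DSS (9.45% of all genes), 2 were lower with polydatin against DSS (2.60% of all genes), and with polydatin against control 1 was higher and 2 were lower (16.0% and 12.4% of all genes). ALDH18A1, which makes the proline and ornithine precursor from glutamate, had 233 CPM in control, 456 in DSS and 303 with polydatin, 1.96-fold higher in DSS than in control. With polydatin it was at 0.666 of DSS, and under total-count scaling at 0.708, which is no longer 1.5-fold. ARG2, the mitochondrial arginase that releases ornithine, had 19.6, 29.1 and 37.0 CPM and was 1.89-fold higher with polydatin than in control. The mitochondrial ornithine carrier SLC25A15 had 34.4, 26.9 and 18.0 CPM, at 0.524 of control with polydatin. AGMAT, named for the hydrolysis of agmatine to putrescine, had 52.0, 47.7 and 28.1 CPM, at 0.589 of DSS and 0.541 of control with polydatin.

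In polyamine transport, 9 of 15 genes were measured, with 1 higher and 1 lower in DSS (9.45% and 5.81% of all genes), 0 called with polydatin against DSS (5.39% and 2.60%), and 2 higher and 1 lower with polydatin against control (16.0% and 12.4%). With polydatin against DSS 7 of the 9 lay above 0, as did 48.4% of all measured genes. Other lists leaned the other way in that comparison. Below 0 were 6 of 7 genes of ornithine and arginine supply, 6 of 7 of terminal oxidation and 9 of 11 of the methionine list. Over all 7 lists 24 of the 57 genes lay above 0 and 33 below. GPC1, a glypican whose heparan sulfate has been tied to polyamine uptake, had 24.1 CPM in control, 39.5 in DSS and 55.2 with polydatin, 1.64-fold and 2.29-fold above control. ATP13A2, the lysosomal polyamine exporter, had 20.2, 27.0 and 31.1 CPM, and was 1.54-fold higher with polydatin than in control. SLC7A1, the cationic amino acid carrier for arginine and ornithine, had 234, 136 and 151 CPM, at 0.579 of control in DSS. With polydatin it was at 0.646 of control, and at 0.696 under total-count scaling, no longer 1.5-fold.

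EIF5A, the translation factor that carries hypusine made from spermidine, had 264 CPM in control, 227 in DSS and 138 with polydatin, at 0.608 of DSS and 0.524 of control. DOHH, the enzyme of the last hypusine step, had 4.19, 7.34 and 7.34 CPM and was 1.75-fold above control in both treated libraries. These were the genes past the rule among the 4 of the hypusine list. In the methionine cycle and salvage list, which supplies and recycles the aminopropyl donor, 10 of 11 measured genes lay below 0 with polydatin against control, with a list median of -0.44, and 2 were lower by the rule. Of all measured genes 51.4% lay below 0 and 12.4% were lower by the rule. MAT1A was at 0.568 of control, from 36 counts with polydatin and 66 in control, and APIP, a salvage enzyme, at 0.563. The list also lay mostly below 0 in the other comparisons. In DSS against control 9 of the 11 were below 0, with a list median of -0.15. With polydatin against DSS 9 of the 11 were below 0, with a list median of -0.19. Of all measured genes 50.5% and 51.6% lay below 0 in these 2 comparisons.

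Among 7 genes of terminal oxidation, 2 were higher in DSS against control (9.45% of all genes), 0 were called with polydatin against DSS, and 1 was higher with polydatin against control (16.0% of all genes). AOC1, the secreted diamine oxidase that degrades putrescine and histamine, had 2.04 CPM in control, 5.02 in DSS and 4.99 with polydatin, 2.46-fold higher in DSS. AOC2 had 1.93, 3.08 and 2.41 CPM, 1.60-fold higher in DSS from 57 counts in DSS and 35 in control. In the list of minor antizyme and acetyltransferase relatives, 3 of 4 were measured, and AZIN2, a second antizyme inhibitor, was 1.95-fold higher with polydatin than in control from 43 counts with polydatin and 23 in control.

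Of 16 genes listed as regulators of the pathway, all were measured. DSS against control had 2 higher and 2 lower (9.45% and 5.81% of all genes), polydatin against DSS 2 higher and 1 lower (5.39% and 2.60%), and polydatin against control 1 higher and 1 lower (16.0% and 12.4%). MXD1, which pairs with MAX and opposes MYC at E-boxes, had 17.1 CPM in control, 30.8 in DSS and 47.1 with polydatin, a 2.75-fold higher level than in control. MYCN had 16.6, 10.6 and 7.74 CPM, at 0.467 of control with polydatin. MYC had 163, 217 and 120 CPM. It was at 1.33 of control in DSS (1.27 to 1.40), where ODC1 was at 0.630 and SRM at 0.900. With polydatin MYC was at 0.555 of DSS (0.527 to 0.586), where ODC1 was at 0.668 and SRM at 0.640. A link between MYC and these members was not tested. EGR1, an immediate early factor, had 69.2, 27.0 and 46.4 CPM, at 0.391 of control in DSS. NFE2L2, which encodes NRF2, had 151, 198 and 214 CPM. Its ratio was 1.31 in DSS against control (1.25 to 1.38) and 1.08 with polydatin against DSS (1.03 to 1.13). With polydatin against control it was 1.41, under the rule, and 1.52, past it, under total-count scaling.

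**Figure D5:**
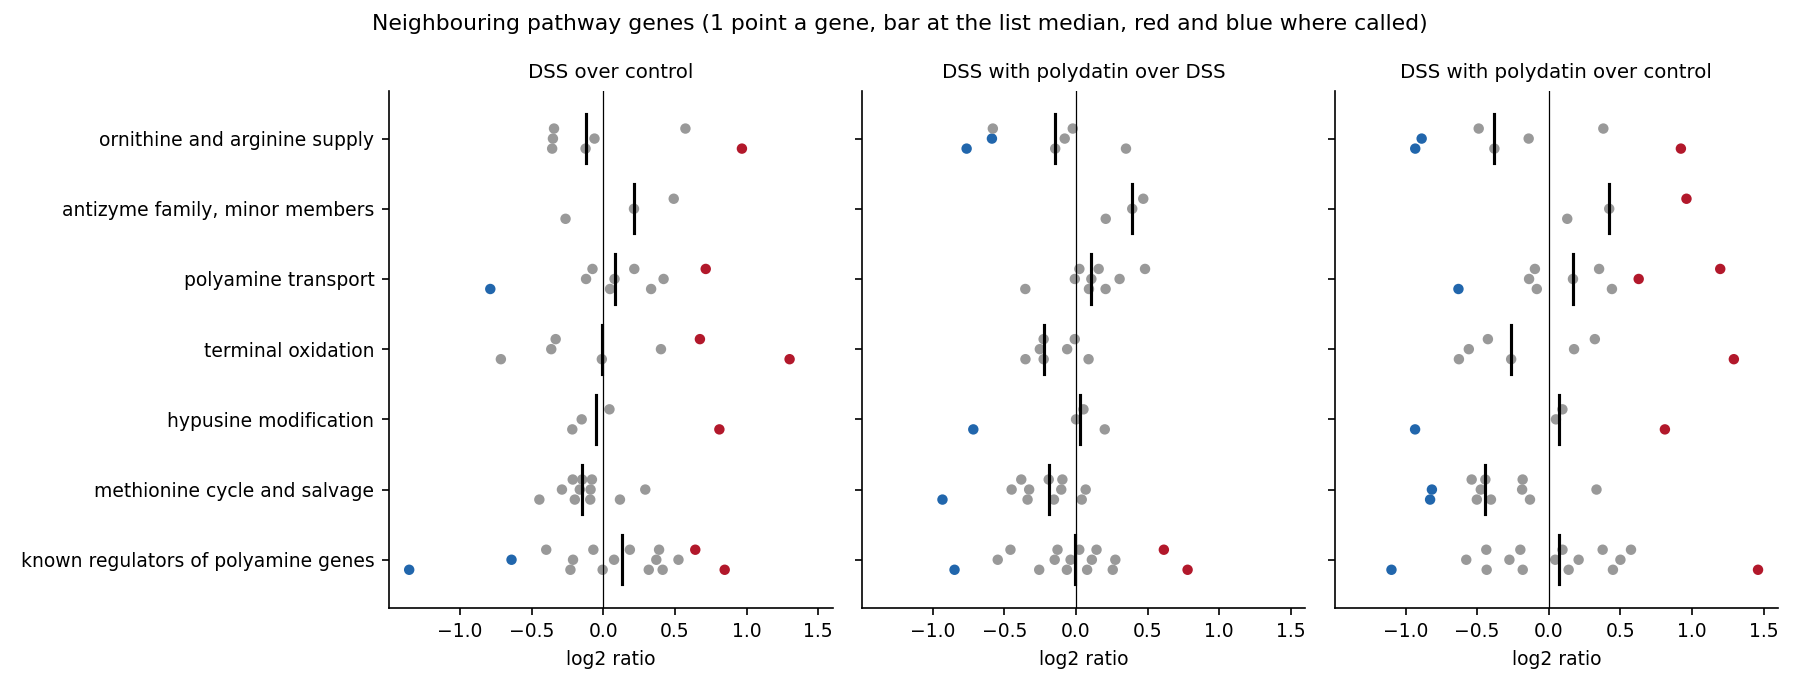
Log2 ratios of the 57 measured genes of the 7 neighbouring lists, 1 point a gene, with a black bar at each list's median and red or blue points for genes past 1.5-fold with an interval that excludes no change. The methionine cycle and salvage list has its median at -0.15 in DSS against control, -0.19 with polydatin against DSS and -0.44 with polydatin against control.

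Over the 9209 genes with at least 10 CPM in every library, the genes whose log2 ratios in DSS against control and polydatin against DSS lay nearest to those of SAT1 were ANO9 (0.36 and 0.70), MROH1 (0.34 and 0.72) and RGL3 (0.37 and 0.64). The nearest to ODC1 were BUB1 (-0.65 and -0.56), LMNB1 (-0.65 and -0.55) and SGO2 (-0.72 and -0.54). Likeness here is the distance over 2 ratios from 3 libraries, and 12 genes lay within 0.1 of SAT1 and 21 within 0.1 of ODC1.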

How the data were processed

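The authors deposited unnormalized counts for Ensembl genes. Their reads were aligned to GRCh38 with HISAT2, per the submitters' processing notes. Per the labels' protocols, a VAHTS kit was used on Trizol-extracted total RNA. The counter, its strand mode and all versions are not stated in the labels or notes used here. Symbols matched 60463 identifiers (99.7%). Gene models, GC content and lengths came from GENCODE 29, and start-site windows from RefSeq (GRCh38.p14).

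Counts were scaled with TMM factors (edgeR 4.0.16, R 4.3.3) of 0.971, 0.984 and 1.05 for control, DSS and DSS with polydatin. A ratio of scaled counts carries an exact 95% Clopper-Pearson interval (scipy 1.17.1) and was called at 1.5-fold with an interval excluding 1. Zero counts entered ratios with 0.5 added in both libraries. Reads carried no molecular identifiers and are not independent molecules. The intervals treat reads as independent, so they may be too narrow even for counting error, and they hold no replicate spread. Alternatives were DESeq2 1.42.0 size factors, scaling by total counts, thinning, 2 added counts, removal of a GC content and length trend, a 2-fold rule, a CPM filter of 10 or none, and other transcript lengths.

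The members and lists were chosen with earlier results of these data known. Named were all members, up to 4 called genes of each list by size of ratio, and the 3 genes nearest in pattern to SAT1 and to ODC1. NFE2L2, STAT3 and ALDH9A1 fall outside that rule and were chosen after its values were seen. Protein comparison was planned and replaced by coding-sequence identity.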

Additional observations from a re-analysis of the deposited data

How the results depend on the processing

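Of the member ratios (10 genes, 3 comparisons), all 30 stayed within their counting interval with DESeq2 size factors, with thinning and with 2 added counts. Under total-count scaling 12 of 30 moved beyond it, and with a GC content and length trend removed 14 did. No called ratio changed sign. A 2-fold rule left 0 members lower in DSS against control, 0 higher and 0 lower with polydatin against DSS, and 1 higher (SAT1) and 1 lower (ODC1) with polydatin against control. For members lower with polydatin against DSS, total-count scaling gave 0 and DESeq2 gave 2. With the trend removed, polydatin against control had 1 member higher and 3 lower. Among list genes, total-count scaling added ARG2 (DSS against control), NFE2L2 and STAT3 (polydatin against control) and ended those of ALDH18A1 (polydatin against DSS) and SLC7A1 (polydatin against control), and DESeq2 added SLC25A15 (polydatin against DSS), ALDH9A1 and EGR1 (polydatin against control). A filter of 10 CPM left 4 list genes higher in DSS and 4 with polydatin against control. Per kilobase of the longest transcript, synthesis held 59.6%, 53.3% and 41.0% and catabolism 18.5%, 24.7% and 38.3% in control, DSS and polydatin. With the principal transcript (chosen after the data were seen), these were 49.6%, 45.2% and 35.1%, 15.6%, 20.7% and 32.6%, and antizymes held 28.3%, 27.0% and 25.6%. No paired analysis was possible because each group holds 1 library. Depth limits PAOX, and gene counts cannot separate transcripts.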
